A study of Mus musculus with 6 samples.

Results

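The genes described here are 42 mouse genes of fatty acid oxidation and ketone body metabolism, chosen by symbol from the table of raw counts, which held 53599 gene symbols. All 42 were in the table, and 41 of them had enough counts to be tested. They were measured by bulk RNA-seq in hepatocytes in which the transcription factor SOX4 had been switched on for 4 days. The animals were male Rosa-LSL-Cas9-EGFP mice on a C57BL/6J background, 4 to 8 weeks old by the methods stated for ectopic expression. The Sox4 group (3 libraries) had received AAV8-TBG-HA-Sox4-P2A-Cre, an adeno-associated virus that carries HA-tagged mouse Sox4 and Cre, and the empty vector group (EV, 3 libraries) had received AAV8-TBG-Cre, which carries Cre alone. The TBG promoter is active in hepatocytes, and in both groups Cre also turns on Cas9 and EGFP from the Rosa locus, so the EV libraries are not from untouched hepatocytes. Hepatocytes were released with liberase and enriched on Percoll. The feeding state of the mice was not given in the sources used here. The study reports a loss of body weight in Sox4 mice after the injection, and its part in the values below was not tested.

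Fatty acids enter the hepatocyte, are bound by carriers and are joined to coenzyme A. Long-chain acyl groups then cross into mitochondria on carnitine and lose 2 carbons with each turn of a cycle of dehydrogenase, hydratase, dehydrogenase and thiolase, whose electrons leave through the electron transfer flavoprotein. Very long chains are first shortened in peroxisomes, thioesterases cut acyl-CoA back to free acid, and in the fasted liver the acetyl-CoA produced is turned into ketone bodies for export. The nuclear receptor PPARA, as a dimer with RXRA, is the best known activator of this gene set in liver.

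Each library held 15090629 to 16964860 counts. Levels are counts per 1000000 counts (CPM) on library sizes scaled by edgeR's TMM method, differences are log2 fold changes of Sox4 over EV with the standard error (SE) of the difference between group means, and a gene was called when its Benjamini-Hochberg adjusted p from edgeR's quasi-likelihood test over all 12691 tested genes was under 0.05 (edgeR adjusted p). The labels number 3 samples in each group without naming animals, and the study describes its RNA-seq as from 3 animals, so the p-values measure the spread between those samples. Sox4 itself was at 2, 0 and 3 counts in the EV libraries and at 21697, 15097 and 11816 counts in the Sox4 libraries, and reads from the vector and from the resident gene cannot be told apart. TMM made the Sox4 libraries 1.48 times larger than the EV libraries, against 1.07 times by total counts. Over all tested genes, the median change on the log2 scale was therefore 0.04 under TMM and 0.51 under library size alone, and each direction given for the fatty acid oxidation genes is relative to that choice. Hepatocyte markers took 10.03% to 12.1% of the counts in every library, and on the CPM scale they summed to 122916 to 144315 CPM in the EV libraries and 85169 to 98939 CPM in the Sox4 libraries, with no overlap. None of 7 rose, 4 fell, and 1 further listed marker was not analysed here. In bulk samples, fewer cells of a type and less RNA per cell cannot be told apart.

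In Sox4-expressing hepatocytes the fatty acid oxidation genes split, with rises and falls in the same pathway. Of the 41 tested members, 9 were higher and 14 were lower in Sox4, and 18 were not called. Of all tested genes, 55.1% were called, 29.0% higher and 26.0% lower, so the members' 9 of 41 lies below the share of genes called higher and their 14 of 41 above the share called lower. Changes of at least 2-fold were called for 5 members upward (Acot3, Acot1, Acot2, Plin2 and Crot), beside 16.5% of all tested genes, and for 7 members downward (Fabp1, Acsl5, Decr2, Echs1, Etfa, Acadvl and Acaa1a), beside 11.9% of all. All EV libraries lay above all Sox4 libraries for 15 members (29.9% of all tested genes) and the reverse held for 7 (33.1%), which makes 22 members with no overlap, against 63.0% of all tested genes. The median log2 fold change of the tested members was -0.22. Under library size alone the median turned to 0.25 and the calls to 14 higher and 9 lower, with 18 of the 23 calls made under TMM kept, all in the same direction. Of all tested genes, 50.9% were then called higher and 12.8% lower. The members thus again lay below the share called higher and above the share called lower. The same 2 shares belong beside each count under library size alone given below. The number of members called higher also rested on single libraries: it was 5 without EV 2 or without EV 3, and 11 without Sox4 1, while 14 to 17 were lower in the fits that left out 1 library. With replicate number as a block in the fit, 6 were higher and 17 lower.

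**Figure D1:**
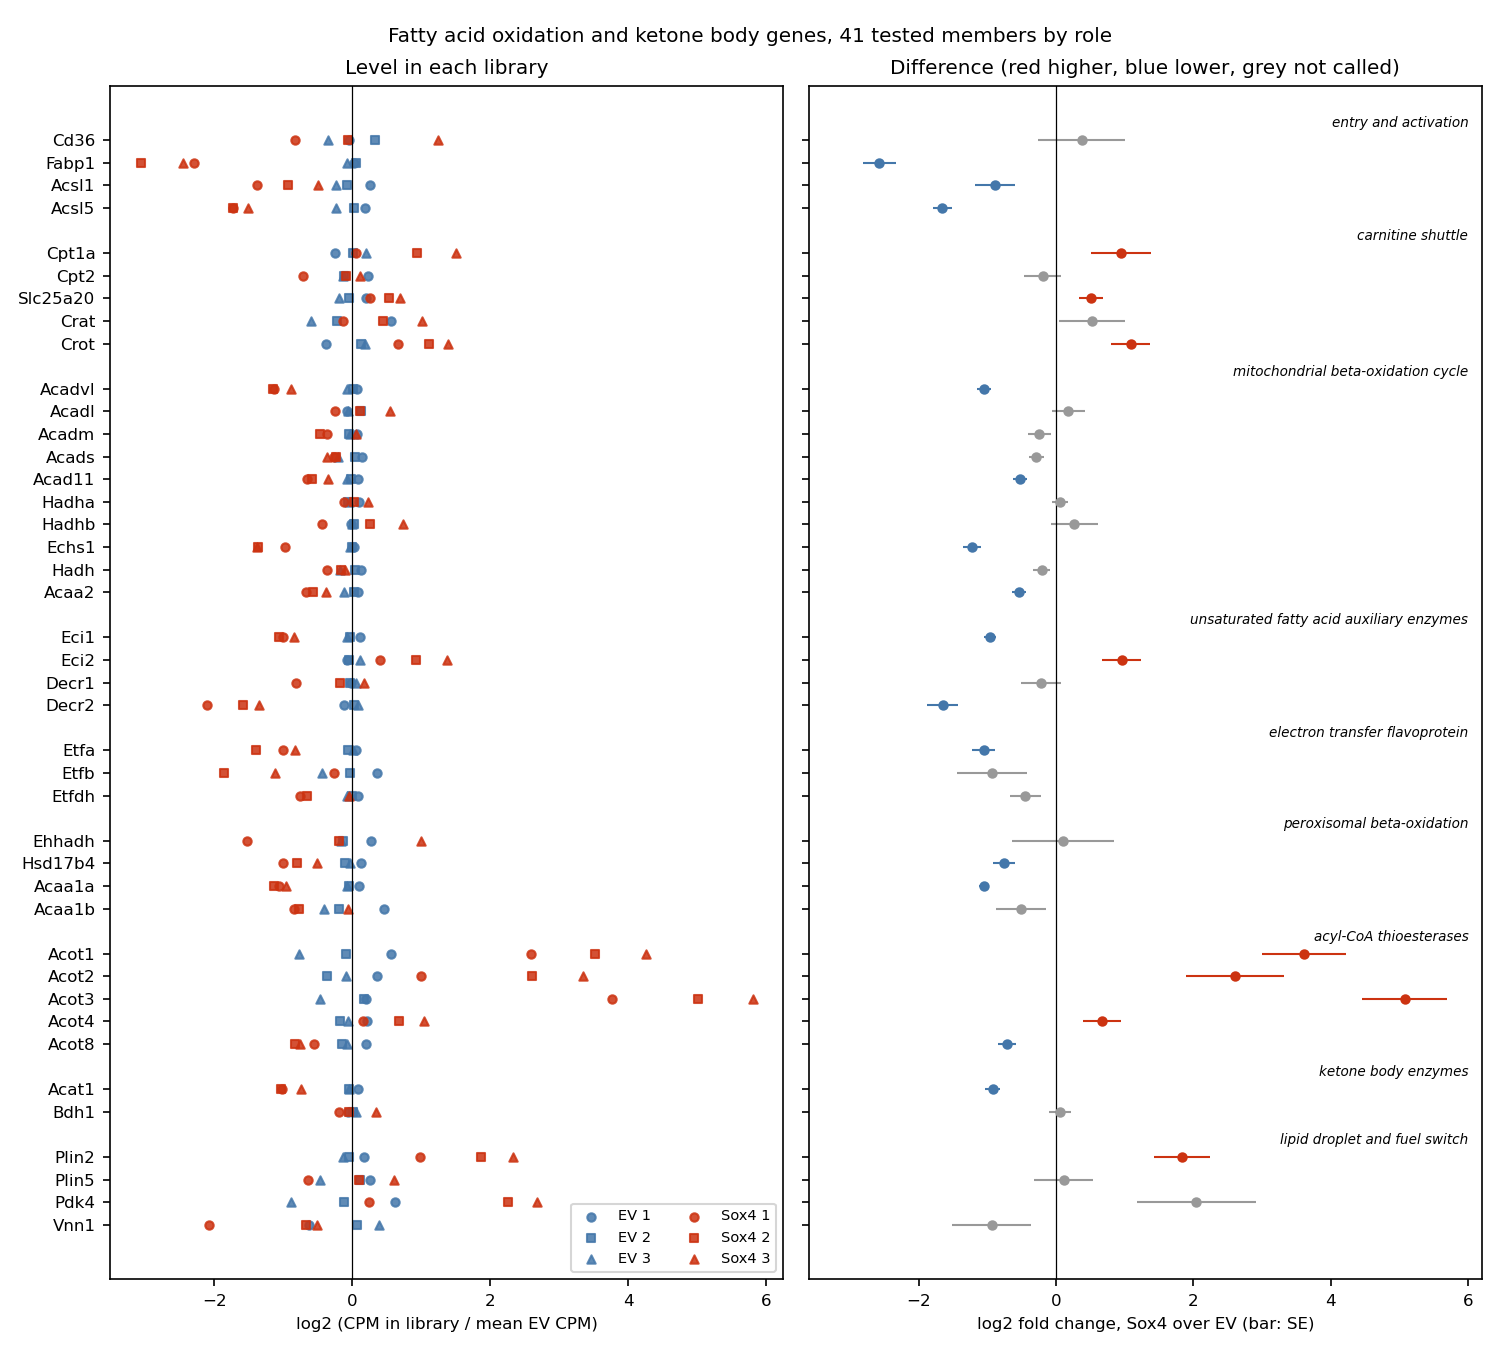
Left, the level of each of the 41 tested members in each library as log2 of its CPM over the mean EV CPM, with 1 symbol per library and members ordered by role. Right, the log2 fold change of Sox4 over EV with its SE, coloured by call, where the 9 members called higher include 4 of the 5 thioesterases and the 14 called lower are spread over 7 roles.

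Fatty acid entry and activation went down. Of the 4 members with this role, 3 fell, none rose and 1 was not called (2 fell under library size alone). Their summed level was 2649, 2365 and 2096 CPM in the EV libraries and 724, 806 and 1105 CPM in the Sox4 libraries. Fabp1, which encodes the abundant liver fatty acid binding protein, was at 850, 864 and 793 CPM in the EV libraries and 170, 99.7 and 152 CPM in the Sox4 libraries. The groups were far apart, and Fabp1 had the largest fall of the 41 members, 5.95-fold (log2 fold change -2.57, SE 0.24, edgeR adjusted p = 7.3e-06). Acsl5, an acyl-CoA synthetase, was at 564, 506 and 422 CPM in the EV libraries and 150, 151 and 174 CPM in the Sox4 libraries. Its Sox4 libraries sat close together and 3.15-fold below the EV mean (log2 fold change -1.65, SE 0.14, edgeR adjusted p = 1.6e-05). Acsl1, the main long-chain acyl-CoA synthetase of liver and the highest member with this role by mean CPM, was at 1210, 963 and 862 CPM in the EV libraries and 390, 531 and 719 CPM in the Sox4 libraries. All EV libraries of Acsl1 were above all Sox4 libraries, and the fall of 0.89 on the log2 scale (SE 0.29, edgeR adjusted p = 0.0083) was no longer called under library size alone. Cd36, the fatty acid translocase of the plasma membrane, was at 24.5, 31.9 and 19.8 CPM in the EV libraries and 14.3, 24.4 and 60.1 CPM in the Sox4 libraries. Its groups overlapped, with the lowest and the highest library both in the Sox4 group, and it was not called (log2 fold change 0.38, SE 0.63).

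The 250 bases before the Fabp1 start are shown because this gene fell most and because they hold the only match among the members to the direct repeat that PPARA and RXRA, HNF4A and related receptors can bind (2 AGGNCA hexamers in the same direction with 1 base between them, searched on both strands). Capitals mark that repeat, 67 bases before the start, and a single AGGTCA hexamer 9 bases before it, both read on the opposite strand. The sequence is from RefSeq (GRCm38.p6, chr6:71199629-71199878, plus strand).
Fabp1: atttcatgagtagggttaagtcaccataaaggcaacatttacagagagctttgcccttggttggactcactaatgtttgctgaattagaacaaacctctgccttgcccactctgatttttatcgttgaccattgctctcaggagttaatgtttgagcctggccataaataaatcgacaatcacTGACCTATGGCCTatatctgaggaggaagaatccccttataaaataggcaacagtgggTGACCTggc

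The carnitine shuttle went the other way. Of its 5 tested members, 3 rose, none fell and 2 were not called (only Crot was called without EV 2 or EV 3), and the summed level went from 1460, 1754 and 1844 CPM in the EV libraries to 2222, 3230 and 4103 CPM in the Sox4 libraries. Crot, the peroxisomal carnitine octanoyltransferase that hands shortened chains on to mitochondria, was at 768, 1085 and 1135 CPM in the EV libraries and 1573, 2152 and 2613 CPM in the Sox4 libraries. It was the highest member with this role, its groups did not overlap, and it rose 2.12-fold (log2 fold change 1.08, SE 0.28, edgeR adjusted p = 0.0023). Cpt1a, the carnitine palmitoyltransferase of the outer mitochondrial membrane that controls entry into the pathway, was at 319, 380 and 437 CPM in the EV libraries and 393, 725 and 1071 CPM in the Sox4 libraries. The lowest Sox4 library lay within the EV range, and the log2 fold change of 0.95 (SE 0.44, edgeR adjusted p = 0.038) was no longer called without EV 1, EV 2, EV 3, Sox4 2 or Sox4 3. Slc25a20, the carnitine-acylcarnitine carrier of the inner membrane, rose by a log2 fold change of 0.51 (SE 0.17, edgeR adjusted p = 0.015), a call lost without EV 2 or EV 3. Cpt2, which returns the acyl group to coenzyme A inside the mitochondrion, was at a log2 fold change of -0.19, and Crat, the carnitine acetyltransferase, at 0.52, and neither was called. Cpt1b, the muscle form of the first enzyme, was the member that did not pass the filter on low counts, with 1, 0 and 2 counts in the EV libraries and 4, 1 and 8 counts in the Sox4 libraries. Of its 50-base stretches, 78.6% also occur in another annotated gene.

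In the mitochondrial cycle itself, 4 of 10 members fell, none rose and 6 were not called. Under library size alone the cycle turned to 3 members higher and 2 lower, beside 50.9% and 12.8% of all tested genes. Its summed level was 3565.6, 3412 and 3198 CPM in the EV libraries and 2374, 2587 and 3060 CPM in the Sox4 libraries. Echs1, the short-chain enoyl-CoA hydratase, was at 317, 312 and 305 CPM in the EV libraries and 158, 121 and 120 CPM in the Sox4 libraries. The EV libraries were within a few percent of each other and the Sox4 libraries all well below them, a fall of 2.34-fold (log2 fold change -1.23, SE 0.13, edgeR adjusted p = 7.0e-05). Acadvl, the very-long-chain acyl-CoA dehydrogenase, was at 213, 204 and 192 CPM in the EV libraries and 92.4, 91.6 and 110 CPM in the Sox4 libraries. It fell 2.07-fold with no overlap (log2 fold change -1.05, SE 0.10, edgeR adjusted p = 7.3e-05), but 26.9% of its 50-base stretches are shared with Dvl2 on the other strand, and the strand setting of the counting was not given in the sources used here. Acaa2, the mitochondrial thiolase and the highest member of the cycle, was at 949, 910 and 828 CPM in the EV libraries and 564, 602 and 688 CPM in the Sox4 libraries. The groups did not overlap for Acaa2 (log2 fold change -0.54, SE 0.10, edgeR adjusted p = 0.0089), nor for Acad11, a further acyl-CoA dehydrogenase (log2 fold change -0.53, SE 0.10, edgeR adjusted p = 0.0068), and neither was called under library size alone.

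The members of the cycle that were not called were the long-, medium- and short-chain dehydrogenases, the trifunctional protein and the third enzyme of the cycle. Acadl was at a log2 fold change of 0.18 (SE 0.24), Acadm at -0.24 (SE 0.16) and Acads at -0.28 (SE 0.11). Hadha and Hadhb, the alpha and beta subunits of the trifunctional protein, were at 0.05 (SE 0.12) and 0.26 (SE 0.34). Hadh, the hydroxyacyl-CoA dehydrogenase, was at -0.21 (SE 0.12). For Acadm, Acads and Hadh the sign turned under library size alone, and for Acadl, Hadha and Hadhb it turned without Sox4 3.

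The auxiliary enzymes that let unsaturated fatty acids through the cycle split. Decr2, the peroxisomal dienoyl-CoA reductase, was at 200, 220 and 231 CPM in the EV libraries and 50.6, 72.3 and 84.8 CPM in the Sox4 libraries, and it fell 3.13-fold (log2 fold change -1.65, SE 0.23, edgeR adjusted p = 5.9e-05). Its groups were well apart. Decr1, the mitochondrial reductase, had the highest mean CPM of this role over both groups together, but Decr2 was higher in EV and Eci2 in Sox4. Decr1 was at 183, 181 and 193 CPM in the EV libraries and 106, 165 and 208 CPM in the Sox4 libraries, which spanned the EV range. It was not called (log2 fold change -0.22, SE 0.29). The enoyl-CoA isomerases went in opposite directions. Eci1, the mitochondrial form, fell by 0.96 on the log2 scale (SE 0.09, edgeR adjusted p = 7.7e-05), and Eci2, a form found in peroxisomes and mitochondria, rose by 0.96 (SE 0.29, edgeR adjusted p = 0.0047), with no overlap of the groups in either.

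Electrons from the acyl-CoA dehydrogenases pass through the flavoprotein of Etfa and Etfb to the dehydrogenase Etfdh. Etfa was at 379, 347 and 366 CPM in the EV libraries and 181, 139 and 206 CPM in the Sox4 libraries. Every Sox4 library was below every EV library, and Etfa fell 2.08-fold (log2 fold change -1.06, SE 0.17, edgeR adjusted p = 0.00036). Etfb (log2 fold change -0.93, SE 0.51, edgeR adjusted p = 0.076) and Etfdh (log2 fold change -0.45, SE 0.23, edgeR adjusted p = 0.066) were not called, but both were called lower in DESeq2, in both limma fits and with no filter on low counts. Etfb rests on 13.6 to 23.5 CPM in EV, far below its partner Etfa, and 44.8% of its 50-base stretches recur in other annotated genes, mostly in an overlapping gene on the same strand, so its count may be incomplete.

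Of the 4 peroxisomal beta-oxidation members, the thiolase Acaa1a and the bifunctional enzyme Hsd17b4 fell and 2 were not called. Acaa1a was at 249, 225 and 221 CPM in the EV libraries and 111, 106 and 119 CPM in the Sox4 libraries, with no overlap and a fall of 2.07-fold (log2 fold change -1.05, SE 0.07, edgeR adjusted p = 5.5e-05). Hsd17b4, the D-bifunctional protein for branched and very long chains, was at a log2 fold change of -0.76 (SE 0.16, edgeR adjusted p = 0.0025), which was not called under library size alone. Acaa1b, the near copy of Acaa1a and the highest member with this role by mean CPM over both groups, was at 735, 467 and 404 CPM in the EV libraries and 299, 314 and 515 CPM in the Sox4 libraries. Its groups overlapped and it was not called (log2 fold change -0.51, SE 0.36, edgeR adjusted p = 0.15). Acaa1a and Acaa1b share 12.4% and 30.5% of their 50-base stretches with each other, so the division of counts between them is uncertain. Ehhadh, the L-bifunctional protein and a classical PPARA target, was at 465, 351 and 345 CPM in the EV libraries and 135, 340 and 776 CPM in the Sox4 libraries. Its 3 Sox4 libraries ran from far below to far above the EV range, and it was not called (log2 fold change 0.11, SE 0.74, edgeR adjusted p = 0.90).

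The acyl-CoA thioesterases held the largest rises of the 41 members. Of 5, 4 rose and 1 fell, with Acot1 and Acot3 the only rises called in the fits without EV 2 or without EV 3. When replicate number was added to the fit as a block, Acot3 was the only rise called. The summed level of the thioesterases went from 94.6, 68.6 and 66.2 CPM in the EV libraries to 178, 324 and 515 CPM in the Sox4 libraries. Acot3, a peroxisomal thioesterase that was close to the detection floor in EV, was at 0.69, 0.68 and 0.44 CPM in the EV libraries and 8.21, 19.4 and 33.8 CPM in the Sox4 libraries. The lowest Sox4 library was well above the highest EV library, and the log2 fold change was 5.07 (SE 0.62, edgeR adjusted p = 0.00054). Acot1, the cytosolic enzyme, was the highest of the thioesterases in Sox4, whereas Acot4 was the highest in EV. Acot1 was at 26.1, 16.6 and 10.3 CPM in the EV libraries and 106, 202 and 338 CPM in the Sox4 libraries. It rose 12.2-fold with no overlap (log2 fold change 3.61, SE 0.62, edgeR adjusted p = 0.0025). Acot2, the mitochondrial enzyme, was at 7.08, 4.32 and 5.22 CPM in the EV libraries and 11.1, 33.9 and 56.1 CPM in the Sox4 libraries. The groups did not overlap, although the lowest Sox4 library was near the EV range, and the rise of 6.08-fold (log2 fold change 2.60, SE 0.72, edgeR adjusted p = 0.013) was not called with no filter on low counts or without EV 1, EV 2 or EV 3.

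The remaining thioesterases changed less. Acot4, a peroxisomal form, was at a log2 fold change of 0.67 (SE 0.28, edgeR adjusted p = 0.024), and it was not called without EV 2, EV 3, Sox4 2 or Sox4 3. Acot8, which is peroxisomal as well but not of the same sequence family, was at -0.71 (SE 0.13, edgeR adjusted p = 0.0044), and was not called under library size alone. Acot1 to Acot4 lie in a gene cluster of close copies: 13.4% to 27.7% of their 50-base stretches recur in other annotated genes, and 24.5% of those of Acot2 recur in Acot1. Counts for Acot1 and Acot2 in particular may be divided differently by another handling of reads with several matches.

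The 250 bases before the starts of Acot1, Acot2 and Acot3 are shown because these neighbours rose together. Capitals mark ACAAAG, the hexamer bound by SOX factors, on either strand. Acot1 holds it 197, 174 and 124 bases before its start, and Acot2 and Acot3 do not hold it in these windows. Of all 32851 promoters of this length 45 (0.137%) hold it at least 3 times. That cutoff equals the number found in Acot1, so the share describes this window and is no test. A match is a run of letters and no measure of binding. The sequences are from RefSeq (GRCm38.p6), Acot1 at chr12:84009252-84009501, plus strand, Acot2 at chr12:83987611-83987860, plus strand, and Acot3 at chr12:84051894-84052143, plus strand, the first of 2 listed starts.
Acot1: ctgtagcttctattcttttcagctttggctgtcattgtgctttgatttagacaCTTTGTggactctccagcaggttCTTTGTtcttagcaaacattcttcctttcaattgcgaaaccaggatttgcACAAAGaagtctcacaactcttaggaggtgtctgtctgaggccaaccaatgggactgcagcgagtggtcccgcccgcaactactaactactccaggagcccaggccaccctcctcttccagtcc
Acot2: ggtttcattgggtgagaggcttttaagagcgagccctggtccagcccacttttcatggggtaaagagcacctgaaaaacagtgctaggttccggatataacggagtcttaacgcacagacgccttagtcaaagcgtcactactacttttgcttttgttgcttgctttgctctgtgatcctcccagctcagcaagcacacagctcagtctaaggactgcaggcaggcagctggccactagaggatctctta
Acot3: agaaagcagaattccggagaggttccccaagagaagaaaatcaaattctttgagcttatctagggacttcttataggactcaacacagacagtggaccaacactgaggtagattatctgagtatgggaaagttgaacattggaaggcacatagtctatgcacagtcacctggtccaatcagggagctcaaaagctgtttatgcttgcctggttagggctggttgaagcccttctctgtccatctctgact

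**Figure D2:**
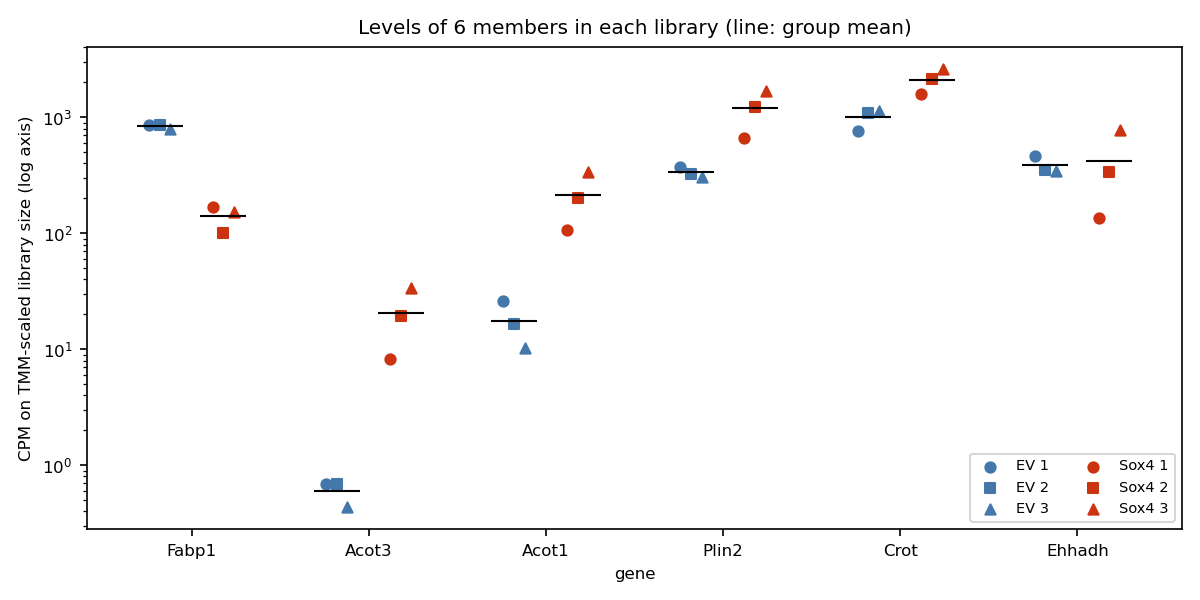
CPM on a log axis of Fabp1, Acot3, Acot1, Plin2, Crot and Ehhadh in each library, EV left and Sox4 right for each gene, with a line at the group mean. Fabp1 falls from 793 to 864 CPM to 99.7 to 170 CPM, the thioesterases, Plin2 and Crot rise with no overlap, and the Sox4 libraries of Ehhadh run from 135 to 776 CPM across its EV range.

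Of the ketone body enzymes, Acat1 fell and Bdh1 was not called, although Bdh1 was called higher under library size alone. Acat1, the mitochondrial acetoacetyl-CoA thiolase, was at 399, 361 and 363 CPM in the EV libraries and 185, 184 and 223 CPM in the Sox4 libraries, with no overlap (log2 fold change -0.92, SE 0.10, edgeR adjusted p = 0.00026). Bdh1, which interconverts acetoacetate and 3-hydroxybutyrate, was at 211, 222 and 228 CPM in the EV libraries and 194, 212 and 281 CPM in the Sox4 libraries. Its groups overlapped and the log2 fold change was 0.06 (SE 0.16).

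Among the lipid droplet and fuel switch genes, Plin2 rose and 3 were not called. Plin2, the coat protein of lipid droplets in hepatocytes, was at 376, 325 and 305 CPM in the EV libraries and 660, 1229 and 1683 CPM in the Sox4 libraries. Every Sox4 library was well above every EV library, a rise of 3.55-fold (log2 fold change 1.83, SE 0.41, edgeR adjusted p = 0.00096). Pdk4, the kinase that holds back pyruvate dehydrogenase in fasting, was at 27.0, 16.2 and 9.50 CPM in the EV libraries and 20.8, 84.1 and 112 CPM in the Sox4 libraries. One of the 3 Sox4 libraries stayed in the EV range, and Pdk4 missed the threshold (log2 fold change 2.04, SE 0.86, edgeR adjusted p = 0.063). It was called without Sox4 1, under library size alone, in DESeq2, in both limma fits and when genes with a mean count under 50 were left out. Plin5, the perilipin that ties droplets to mitochondria (log2 fold change 0.11, SE 0.43), and Vnn1, a pantetheinase and PPARA target (log2 fold change -0.94, SE 0.58, edgeR adjusted p = 0.11), were not called, although Vnn1 was called lower in DESeq2.

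The window before the Plin2 start is shown as that of the largest called rise outside the thioesterases. Capitals mark an AGGTCA hexamer 218 bases before the start, on the opposite strand, and no ACAAAG is in the window (RefSeq, GRCm38.p6, chr4:86670060-86670309, minus strand).
Plin2: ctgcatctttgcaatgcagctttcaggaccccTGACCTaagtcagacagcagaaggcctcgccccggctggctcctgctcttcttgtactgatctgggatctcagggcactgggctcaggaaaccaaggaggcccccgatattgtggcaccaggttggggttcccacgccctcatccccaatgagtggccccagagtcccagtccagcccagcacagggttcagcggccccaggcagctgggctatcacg

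A RefSeq promoter was matched for 35 of the 42 members. A member was counted when any of its listed starts held the motif, but the shares of all are per start. Members with several starts therefore had more chances to match, and the 2 kinds of share are not strictly comparable. ACAAAG was in the 250-base windows of 5 of the 35 members (Acot1, Acot4, Eci2, Bdh1 and Cd36), beside 16.5% of all promoters. The first 3 of these genes were called higher. AGGTCA was in 9, beside 14.0% of all, with 3 of these genes higher and 3 lower. The direct repeat was in 1, beside 0.338% of all, and the HNF4A motif CAAAGTCCA, which overlaps ACAAAG in part, was in none, beside 0.384%. TTGCNNAA, the motif of C/EBP factors, was in 4 (9.56% of all) and TATAAA in 2 (12.4%). CCAAT was in 22 of the 35 (62.9%), beside 33.85% of all promoters, and of these 22 genes 8 were called higher and 6 lower.

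Compared per length of exon, the order of levels changed between the groups. The length joined all annotated exons of a gene over its transcripts (10483 bases for Acsl1, 8286 for Echs1), so the order depends in part on the annotation. In EV, Fabp1 led with 1511 CPM per kb, followed by Acaa2 (591), Acaa1b (273), Etfa (198) and Crot (183). In Sox4, Acaa2 led with 408 CPM per kb, followed by Crot (387), Plin2 (339) and Fabp1 (254). Plin2 was at 95.5 CPM per kb in EV. Acot3 stayed near the bottom in both groups, at 0.18 CPM per kb in EV and 5.96 CPM per kb in Sox4, and in EV only Cpt1b was lower. Summed over all members, the level was 12177, 11392 and 10951 CPM in the EV libraries and 8118, 10603 and 14082 CPM in the Sox4 libraries, so the sum did not separate the groups.

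The 3 Sox4 libraries differed widely among themselves in these genes. Sox4 3 was the highest Sox4 library for 36 of the 41 tested members (87.8%), beside 33.2% of all tested genes, and Sox4 1 the lowest for 30 (73.2%), beside 35.9% of all. Both held for 30 members (73.2%), beside 20.9% of all tested genes. The median log2 ratio of Sox4 3 over Sox4 1 was 0.73 over the members and -0.02 over all tested genes, and 12 members (29.3%) were at least 2-fold higher in Sox4 3, beside 3.96% of all. The ratio was largest for Ehhadh (5.75), Pdk4 (5.37), Acot2 (5.03), Cd36 (4.19) and Acot3 (4.07), which were named after their values were seen, and it was under 1 for Etfb, Echs1, Acot8, Fabp1 and Acads. The median range over 3 libraries, on the log2 scale, was 0.77 in Sox4 and 0.31 in EV for the members, beside 0.40 and 0.35 for all tested genes. These are descriptions of 3 libraries and were not tested, and genes that move together are not independent counts.

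**Figure D3:**
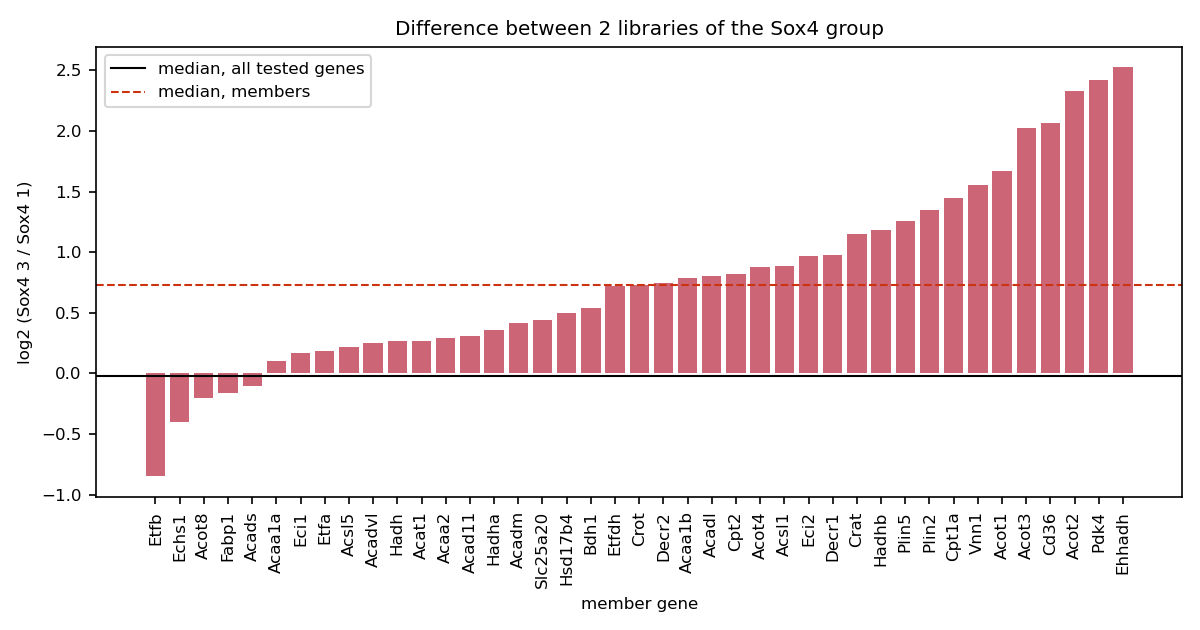
Bars give log2 of the CPM in Sox4 3 over the CPM in Sox4 1 for each of the 41 tested members, sorted by size. The dashed line is the members' median (0.73) and the solid line the median of all tested genes (-0.02), and 5 members lie below 0.

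Other measures differed between the same libraries. Sox4 1 had the most Sox4 counts (21697) and Sox4 3 the fewest (11816). Mitochondrially encoded mRNAs, 13 genes of which none was called, took 4.36% of the counts in Sox4 1, 6.99% in Sox4 2 and 7.44% in Sox4 3, and 5.32% to 5.86% in the EV libraries. Markers of Kupffer cells summed to 23.7, 49.4 and 59.6 CPM in Sox4 1, Sox4 2 and Sox4 3 and to 9.85, 20.4 and 23.6 CPM in the EV libraries, with 3 of 7 tested markers higher and none lower. The defining marker Clec4f was at 47, 86 and 97 counts in the EV libraries and 98, 211 and 309 counts in the Sox4 libraries, and was not called (edgeR adjusted p = 0.11). Endothelial markers summed to 14.3, 29.1 and 31.8 CPM in the Sox4 libraries and 17.47 to 25.2 CPM in the EV libraries (2 of 8 higher, 1 lower). Stellate cell markers summed to 137, 146 and 89.98 CPM in Sox4 1, Sox4 2 and Sox4 3 and 10.8 to 49.0 CPM in the EV libraries (3 of 5 tested higher). Reln made up 126, 117 and 50.8 CPM of these Sox4 sums, and the other 7 stellate markers summed to 10.3, 28.7 and 39.2 CPM in Sox4 1, Sox4 2 and Sox4 3 and 3.69 to 11.5 CPM in the EV libraries. Cholangiocyte markers summed to 71.4 to 84.6 CPM in the Sox4 libraries and 27.5 to 43.6 CPM in the EV libraries (2 of 4 tested higher), with Krt7 and Krt19 at 0 in all EV libraries. None of 5 adipocyte markers passed the filter, 3 of them were at 0 in every library, and Plin1 had 1 count in all. The part of any of these measures in the members' differences, that of Plin2 included, was not tested.

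None of the listed regulators of the pathway rose. Ppara was at 86.0, 74.997 and 91.5 CPM in the EV libraries and 49.6, 79.0 and 90.03 CPM in the Sox4 libraries. It was not called (log2 fold change -0.21, SE 0.27), its sign turned under library size alone, and it too was lowest in Sox4 1 and highest in Sox4 3 among the Sox4 libraries. Rxra, its partner, was at 477, 509 and 530 CPM in the EV libraries and 205, 266 and 193 CPM in the Sox4 libraries, a fall of 2.28-fold with no overlap (log2 fold change -1.19, SE 0.15, edgeR adjusted p = 0.00013). Ppargc1a, a coactivator of oxidation genes, was not called (log2 fold change 0.31, SE 0.42), but was called higher without Sox4 1 and under library size alone. Of the 10 regulators 4 fell (under library size alone 3 fell and 1 rose), among them the coactivator Lpin1 (log2 fold change -2.06, SE 0.70, edgeR adjusted p = 0.020), whose EV 1 library at 127 CPM was close to the Sox4 libraries (93.1 to 102 CPM) and far from EV 2 and EV 3 (505 and 582 CPM), and whose call was lost with no filter on low counts and in 5 of the 6 fits that leave out 1 library, all but the one without EV 1.

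A further 59 genes were of oxidation, uptake and ketone metabolism, or among 9 genes known from fasting and PPARA activation. Of the 59, 56 were tested, and 11 of these (19.6%) rose and 26 (46.4%) fell, beside 29.0% and 26.0% of all tested genes. The fasting and PPARA genes gave 3 of the rises and none of the falls. Under library size alone, 18 of the 56 (32.1%) rose and 22 (39.3%) fell, beside 50.9% and 12.8% of all tested genes. Without EV 1 or without EV 2, 6 (10.7%) rose, beside 24.8% and 23.8% of all tested genes in these fits. Among the other peroxisomal genes, 11 of 18 tested fell and 2 rose (9 and 4 under library size alone). Those that fell included Nudt7, a coenzyme A hydrolase (log2 fold change -3.43, SE 0.36), Hacl1, of alpha-oxidation (-2.41, SE 0.35), and Pecr, a trans-enoyl-CoA reductase (-2.18, SE 0.20), and Abcd2, a transporter of the peroxisomal membrane, rose (2.04, SE 0.22). Other genes of uptake and activation fell in 5 of 7 tested and rose in 1 (4 and 1 under library size alone), with Slc27a5, the bile acid and very-long-chain acyl-CoA synthetase, at -3.55 (SE 0.15). Of 10 other mitochondrial genes 5 fell and 2 rose, a balance that was 4 and 4 under library size alone, and Acad10 fell furthest (-2.31, SE 0.11). Cpt1c, the carnitine palmitoyltransferase of neurons, was among those that rose, with 0, 0 and 4 counts in the EV libraries and 67, 45 and 68 counts in the Sox4 libraries. Of 6 other ketone body genes 2 fell and 2 rose (2 and 3 under library size alone). Among those that rose was Oxct1, the ketone-using enzyme that hepatocytes normally lack, which stayed low at 1.53 to 2.53 CPM in the Sox4 libraries and 0.29 to 0.62 CPM in the EV libraries (log2 fold change 2.06, SE 0.32, edgeR adjusted p = 0.0032).

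Genes known from fasting and PPARA activation were higher or not called. Of 8 tested, 3 rose and none fell, beside 29.0% and 26.0% of all tested genes (5 and none under library size alone, beside 50.9% and 12.8%). Fgf21, the fasting hormone of liver, had 5, 2 and 6 counts in the EV libraries and 98, 274 and 603 counts in the Sox4 libraries (log2 fold change 5.63, SE 0.82, edgeR adjusted p = 0.0022). The droplet protein Hilpda rose (log2 fold change 2.31, SE 0.26, edgeR adjusted p = 7.4e-05). Cidec, another, was called higher (log2 fold change 2.58, SE 0.92, edgeR adjusted p = 0.021), but its groups overlapped, with 1.80 CPM in Sox4 1 and up to 2.03 CPM in EV, and the call was lost in limma-voom and without EV 1 or EV 2. Of 7 omega-oxidation genes 3 fell and 1 rose, with Cyp4a12a at -5.98 (SE 1.40), Cyp4a12b at -4.52 (SE 1.21) and Cyp4a31 at 2.51 (SE 0.85), close copies whose counts may be divided differently, and whose calls were lost without Sox4 1 (Cyp4a12a and Cyp4a12b) or without EV 1, EV 2, EV 3 or Sox4 2 and with no filter (Cyp4a31). Cyp4a14, not called and named after its values were seen, was at 15.3, 40.6 and 569 CPM in Sox4 1, Sox4 2 and Sox4 3 and 140 to 225 CPM in the EV libraries.

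Fatty acid synthesis and the TCA cycle went down. All 10 fatty acid synthesis genes fell (8 under library size alone), among them Thrsp, a lipogenic regulator (log2 fold change -5.73, SE 0.37), Acacb, which makes the malonyl-CoA that holds back CPT1 (-4.44, SE 0.38), Scd1, the stearoyl-CoA desaturase (-3.97, SE 0.52), and Fasn, the fatty acid synthase (-2.51, SE 0.32). Of 17 genes of the TCA cycle, which takes up the acetyl-CoA, 16 fell and none rose (8 fell and none rose under library size alone), with a median log2 fold change of -0.67, beside -0.26 for the mitochondrial beta-oxidation cycle. The edgeR adjusted p of the called genes named from synthesis, omega-oxidation and the peroxisome was at most 0.039.

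**Figure D4:**
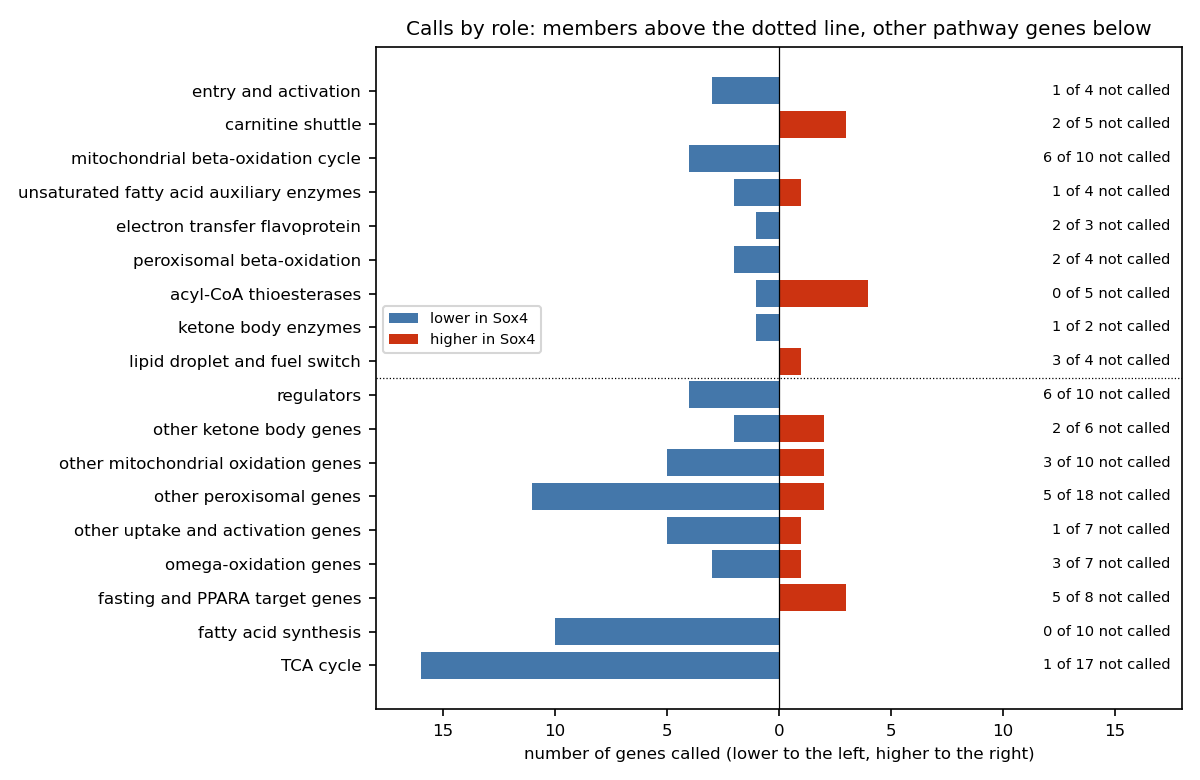
Number of genes called lower (bars to the left) and higher (bars to the right) in Sox4 for each role of the members, above the dotted line, and for each list of other pathway genes, below it, with the number not called at the right. The thioesterases and the carnitine shuttle lean to the right with 4 and 3 genes higher. Their counts higher are 2 and 1 without EV 2 or without EV 3, and 1 and 3 with a replicate block. Fatty acid synthesis (10 lower, 8 under library size alone) and the TCA cycle (16 lower, 8 under library size alone) hold no gene called higher.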

How the data were processed

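RNA-seq was performed on hepatocytes from 3 EV and 3 Sox4 samples, grouped by their labels. The authors aligned reads to GRCm39 with STAR (2.7.10b in the submitters' processing notes) and used featureCounts 2.0.1 to count reads on genes, and deposited these raw counts. The authors also deposited a normalized signal, the counts divided by DESeq2 size factors, used here only in 1 alternative. Annotation, strand and multimapping settings were not given in the sources used here.

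Counts were tested with edgeR 4.0.16 (TMM, filterByExpr with a minimum count of 10, robust quasi-likelihood F test, Benjamini-Hochberg threshold 0.05) in R 4.3.3, on all 12691 genes that passed the filter. The step was tested on simulated data. Shown log2 fold changes are from this fit, and their SE is from log2 CPM with a prior count of 2. A detection floor of 3 counts corresponds to 0.15 to 0.23 CPM. Alternatives were DESeq2 1.42.0, limma 3.58.1 (voom, or log2 of the deposited signal plus 1), other scalings and filters, a replicate block, and leaving out each library. Shared 50-base stretches, exon length and overlaps were taken from GENCODE M21, a different build from the counts, and promoters from RefSeq GRCm38.p6.

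Values are given per library for members called with a log2 fold change of at least 1 in size, for the highest member of each role by mean CPM over both groups, and for those not past the filter. Cd36, Cpt1a, Ehhadh, Bdh1 and Pdk4 are also shown per library, and Cyp4a14 and the genes with the largest spread are named, chosen after their values were seen. Of the other genes, Ppara, Rxra, Ppargc1a and those called with a log2 fold change of at least 2 in size are named. Some genes that the lists count are not reported here by name. The members and lists were chosen with earlier results of these data known.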

Additional observations from a re-analysis of the deposited data

How the results depend on the processing

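Over all alternatives, the 41 members gave 574 values, of which 503 kept direction and call, 23 lost the call, 29 gained it and 19 turned direction, and the other pathway genes named by rule gave 320, of which 296 kept both, 20 lost the call, 2 gained it and 2 turned direction.

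Scaling mattered most. Under library size alone, 14 members were called higher and 9 lower, at least 2-fold for 9 and 3, the members' median was 0.25, 19 of the 93 other genes tested were higher (11 under TMM), and the log2 fold change turned positive for Cpt2 (0.27), Acadm (0.23), Acads (0.18), Hadh (0.26), Decr1 (0.25), Etfdh (0.021) and Ppara (0.26). Of all genes called, 79.9% were then higher, against 52.7% under TMM, and of all tested genes 50.9% were higher and 12.8% lower. Ehhadh turned negative in limma-voom (-0.22), in limma on the deposited signal (-0.22) and with the replicate block (-0.20). With the replicate block, 3 members were higher by at least 2-fold, and 6 members were higher and 17 lower in all: Acot1, Acot2 and Acot4 were not called, which left 1 of 5 thioesterases higher, and Etfb, Etfdh and Vnn1 were called lower. Cyp4a12a, Cyp4a12b, Cyp4a31 and Lpin1 were not called with the block either. The cause was not tested. Whether the replicate numbers pair the samples was not given in the sources used here, and so few correlations cannot decide it. Same-numbered samples correlated by 0.27, -0.09 and 0.13 in their deviations from the group means. Of the 6 libraries, 3 correlated best with their own number. EV 1 and Sox4 1 were each other's best match, and so were EV 3 and Sox4 2.

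Leaving out each library in turn gave 5 to 11 members higher (5 without EV 2 or EV 3, 11 without Sox4 1), 3 to 8 higher by at least 2-fold (3 without EV 1, 8 without Sox4 1), and 6 to 14 of those 93 genes higher (6 without EV 2). Members not called in the full fit ranged from -0.37 to 0.0052 for Cpt2, -0.45 to 0.0024 for Decr1, -0.39 to 0.73 for Cd36, -0.053 to 0.35 for Acadl, -0.045 to 0.13 for Hadha, -0.045 to 0.52 for Hadhb, -0.70 to 0.52 for Ehhadh, -0.11 to 0.16 for Bdh1 and -0.22 to 0.37 for Plin5, and Ppara from -0.38 to 0.0029. Members called in the full fit kept their direction when a library was left out. Without Sox4 1, Hadhb, Pdk4 and Etfb were also called, without Sox4 3, Etfdh, Acadm and Acaa1b, and without EV 3, Acads.

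With 3 libraries a group, an exact permutation test of a single value cannot go below 0.10, and a member that was not called is not shown to be equal in the groups.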
